A study of Mus musculus with 86 samples.

Results

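The transcriptome of neurites was compared between TDP-43 knockout and wild-type CAD cells. CAD is a mouse catecholaminergic cell line of brain origin that extends neurites when serum is withdrawn. All samples labelled as the neurite fraction of CAD cells with or without doxycycline were taken, which gave 6 of the 86 samples of the series, 3 knockout and 3 wild-type. In both groups the endogenous Tardbp alleles, which encode TDP-43, had been inactivated with CRISPR/Cas9, and both carried a single-copy HA-tagged TDP-43 transgene, immune to the guide RNAs, under a doxycycline-off promoter. Wild-type cells received no doxycycline and kept the transgene active. Knockout cells received doxycycline, 2 μg/mL for 48 h in the labels, a dose on which labels and methods of the study differ. The cells were clones, doxycycline was given to every knockout sample and to no wild-type sample, and an effect of the drug therefore cannot be told apart from loss of TDP-43. Neurites had grown through the pores of a transwell membrane, from the top of which the cell bodies were scraped away. The soma fractions of the same cells (3 knockout, 3 wild-type) and the neurites of N2A cells, a mouse neuroblastoma line carrying the same switch (3 and 3), served for comparison.

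TDP-43 is an RNA-binding protein of the hnRNP family that prefers GU-rich RNA, shuttles between nucleus and cytoplasm, and acts in splicing, polyadenylation, RNA stability and RNA transport. Its loss from the nucleus and its aggregation in the cytoplasm mark affected neurons in amyotrophic lateral sclerosis and frontotemporal dementia. Neurites hold a selected set of RNAs, brought there on motor proteins or held there by local anchoring and stability, and translate some of them far from the cell body.

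The neurite libraries held 28201658 to 32895542 estimated counts each, and levels are given as CPM, counts scaled to a common library size after correction by the TMM method. CPM is a relative abundance, so that a change in the total amount of neurite RNA does not show in it. Fewer neurites and less RNA per neurite can therefore be neither seen nor told apart. CPM is not divided by transcript length, so that it compares samples and not genes. The mitochondrial genome supplied 13.9 to 22.3% of the counts in neurite libraries and 4.19 to 7.01% in soma libraries. A set of 4 short genes annotated as microRNAs (Mir6236, Gm23935, Gm24245 and Gm24270) took 37.7 to 64.2% of the length-corrected TPM of neurite libraries, highest in wild-type replicate 1, but at most 1.71% of their counts, and TPM was therefore not used for the comparisons. Nuclear long noncoding RNAs, a sign of cell bodies in the neurite fraction, summed to 824 to 1385 CPM in wild-type and 936 to 1180 CPM in knockout neurites, against 1769 to 4715 CPM in soma. Neuronal markers, among them Prph, Elavl4 and Stmn2, were present in all libraries at a sum of 4812 to 5358 CPM in neurites. Of 20 markers of glia, endothelium, blood and fibroblasts, 12 could be tested and summed to 17.98 to 22.7 CPM, and Cldn5, Mog and Olig2 had no count in any CAD neurite library.

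Tardbp RNA was lower in every knockout library. In neurites it was measured at 536, 501 and 491 CPM in wild-type replicates 1, 2 and 3 and at 150.03, 134 and 129 CPM in the knockout replicates, so the groups did not overlap. The log2 fold change was -1.89 (SE 0.0752, adjusted p = 3.92e-11, edgeR's quasi-likelihood test with Benjamini-Hochberg adjustment, used for all adjusted p values here). In soma the fall was larger, -2.52 on the log2 scale (adjusted p = 3.35e-12), and the difference between the compartments was itself past the threshold (0.63, adjusted p = 0.005). The remaining Tardbp reads may come from the inactivated alleles or the transgene, which the counts do not separate.

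Many genes differed in neurite abundance, most of them by less than 2-fold. Of 17343 genes tested, 2041 were higher (11.8%) and 2344 lower (13.5%) in knockout neurites at an FDR of 0.01, with median log2 fold changes of 0.578 and -0.551 among those called and 0.00403 over all genes tested. At least 2-fold changes were called for 529 genes that rose (3.05%) and 432 that fell (2.49%), and 45 genes rose and 22 fell at least 8-fold. The 3 knockout libraries did not overlap the 3 wild-type libraries for 46.6% of the genes tested and for 4380 of the 4385 genes called. The samples are labelled as replicates without saying that they came from separate cultures, so the p values measure the spread between these samples. Leaving out 1 neurite library at a time gave 1550 to 1769 rises and 1800 to 2092 falls, which shared 75.9 to 83.4% of the called genes.

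**Figure D1:**
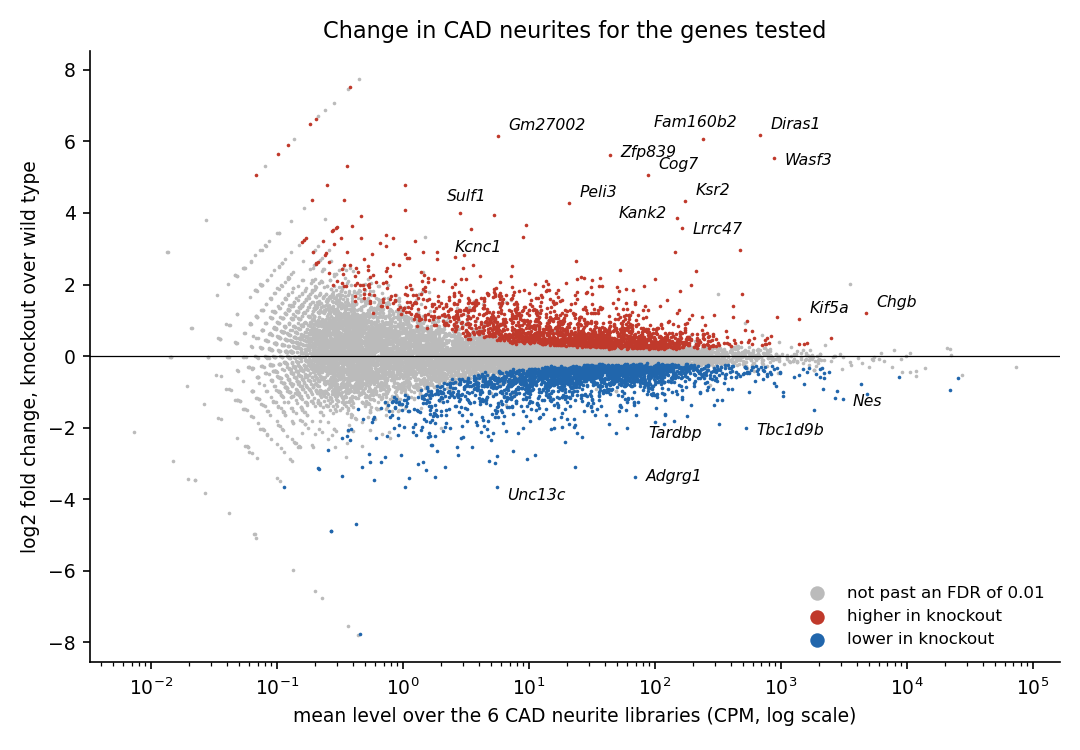
Each point is a gene, placed by its mean level over the 6 CAD neurite libraries (CPM, log scale) and its log2 fold change in knockout over wild-type neurites, with genes past an FDR of 0.01 in red where higher and in blue where lower. The largest rises of well measured genes (Diras1, Fam160b2, Zfp839 and Wasf3, all above 5) are larger than the largest falls (Unc13c and Adgrg1, between -3 and -4). 7 genes beyond the axes are left out.

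The largest rises of neurite abundance were led by Diras1, and Wasf3 and Ksr2 were among them. Diras1, a small GTPase of the Ras family (chr10:81019589-81025662, minus strand, GRCm38), was measured at 18.7, 19.7 and 17.7 CPM in wild-type neurites and at 1164, 1492 and 1373 CPM in knockout neurites. This was a log2 fold change of 6.17 (SE 0.117, adjusted p = 6.06e-15), or 71.8-fold. Wasf3, a WAVE protein that activates the Arp2/3 actin nucleator (chr5:146384985-146473615, plus strand), rose from 37.99, 37.5 and 37.2 CPM to 1455, 1942 and 1794 CPM (log2 fold change 5.53, SE 0.105, adjusted p = 6.06e-15). For both genes every knockout library stood far above every wild-type library. Ksr2, a scaffold of the Raf, MEK and ERK kinases (chr5:117414000-117775003, plus strand), rose from 18.7, 16.9 and 14.2 CPM to 268, 369.8 and 359 CPM, a log2 fold change of 4.33 (SE 0.132, adjusted p = 1.20e-12). The knockout replicates of Ksr2 varied more than those of Wasf3, replicate 1 being the lowest for both.

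Fam160b2, of a family of dynein adaptor subunits (chr14:70583296-70599835, minus strand), was measured at 8.04, 6.73 and 6.63 CPM in wild-type and 427, 522 and 480.4 CPM in knockout neurites (log2 fold change 6.06, SE 0.120, adjusted p = 6.67e-15). Zfp839, a zinc finger gene, rose from 1.94, 1.73 and 1.58 CPM to 77.3, 95.4 and 83.3 CPM (log2 fold change 5.61, SE 0.133, adjusted p = 5.01e-14). Both genes were scarce in wild-type neurites, Zfp839 more so, and abundant in the knockout. Cog7, a subunit of the COG tethering complex of the Golgi, rose from 4.99, 5.58 and 4.77 CPM to 154, 184 and 174 CPM (log2 fold change 5.06, SE 0.115, adjusted p = 3.00e-14). Kank2, an adaptor between focal adhesions and the cytoskeleton, rose from 18.4, 20.5 and 18.8 CPM to 246, 307 and 285 CPM (log2 fold change 3.86, SE 0.0864, adjusted p = 2.80e-14). Peli3, a ubiquitin ligase of the Pellino family, rose from 2.12, 2.30 and 1.76 CPM to 34.9, 44.3 and 39.1 CPM (log2 fold change 4.27, SE 0.122, adjusted p = 6.51e-13). In each of these genes the 3 knockout libraries lay within 1.5-fold of each other and far above all wild-type libraries.

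Further rises were 3.59 for Lrrc47, a leucine-rich repeat gene, 3.99 for Sulf1, which edits heparan sulfate at the cell surface, and 3.56 for Kcnc1, a voltage-gated potassium channel (adjusted p = 9.84e-15, 5.91e-09 and 6.77e-09). Sulf1 and Kcnc1 were scarce in wild-type neurites, at 0.221, 0.399 and 0.367 and 0.618, 0.665 and 0.367 CPM. The noncoding gene Gm27002 rose by 6.15 on the log2 scale (SE 0.298), but its wild-type value rests on 4, 5 and 2 estimated counts, against 211, 308 and 303 in the knockout. The other genes among the 15 largest rises were Gm45719, Gm47583 and 1300002E11Rik, and the last overlaps exons of Map3k13 on the same strand, so its reads could not be assigned with certainty.

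The 3′ UTRs of the strongest genes were read for GU repeats, the sequence TDP-43 prefers. The 30 bases around the longest uninterrupted alternation of G and U in the longest annotated 3′ UTR are written out 5′ to 3′, with T for U, as examples of longer and shorter stretches in genes that rose and in genes that fell. Capitals mark the alternation, and coordinates are those of GRCm38.
Diras1, rose, chr10:81020266-81020295, minus strand: gagagtgaGTGTGTGTGTGTGaagggggag
Ksr2, rose, chr5:117766495-117766524, plus strand: tacatggGTGTGTGTGTGTGTGTaactgtt
Peli3, rose, chr19:4929978-4930007, minus strand: atgtgggGTGTGTGTGTGTGTGcgtgtgag
Fam219a, rose, chr4:41519194-41519223, minus strand: gtgtgcGTGTGTGTGTGTGTGTGTtgtacc
Wasf3, rose, chr5:146471809-146471838, plus strand: atcgcctgctaTGTGTGTGgacgcctgtcc
Kank2, rose, chr9:21767831-21767860, minus strand: agttttatgttTGTGTGTttgtttttaatg
Tbc1d9b, fell, chr11:50172025-50172054, plus strand: gaaaaagcacacTGTGTGcagtgcttttcc
Bsn, fell, chr9:108096424-108096453, minus strand: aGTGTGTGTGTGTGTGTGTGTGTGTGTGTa

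The alternation was 13 bases long in Diras1, 16 in Ksr2, 15 in Peli3 and 18 in Fam219a, but only 8 in Wasf3 and 7 in Kank2, which also rose. Fam160b2 and Zfp839 held the longest stretches among the named rises, of 34 and 55 bases. In other rises the longest stretch was short, 6 bases in Cog7 and Lrrc47, 5 in Kcnj12 and 7 in Sulf1 and Kcnc1. The pentamer GUGUG, counted with overlaps on the transcript strand, occurred 27 times in the 2230 bases of the Diras1 3′ UTR, 86 times in the 1749 bases of Fam160b2 and 7 times in the 3238 bases of Wasf3. Lrrc47 held 35 pentamers in 1637 bases despite its short longest stretch, a higher density than that of Diras1 (21.4 and 12.1 per kilobase). Cog7, Kcnj12, Sulf1 and Kcnc1 held 3, 1, 4 and 10. Bsn, whose abundance fell, had a stretch of 28 bases and 43 pentamers, more than most of the genes shown that rose. Tbc1d9b, which also fell, had 1 pentamer.

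Across genes, a stretch of at least 12 bases was found in the 3′ UTR of 254 of 1892 genes that rose in neurites (13.4%) and of 150 of 2271 that fell (6.61%), beside 1043 of all 13718 tested genes with an annotated 3′ UTR (7.60%). Among genes that rose at least 2-fold the share was 17.02% (72 of 423), and among those that fell at least 2-fold it was 6.65% (26 of 391). Genes that rose in soma held it in 12.7% of cases (230 of 1809). 3′ UTRs of genes that rose were somewhat longer than those of all genes tested, with medians of 1538 and 1401 bases, and the part of length in these shares was not tested. A match describes the annotated sequence and is not evidence of binding.

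**Figure D2:**
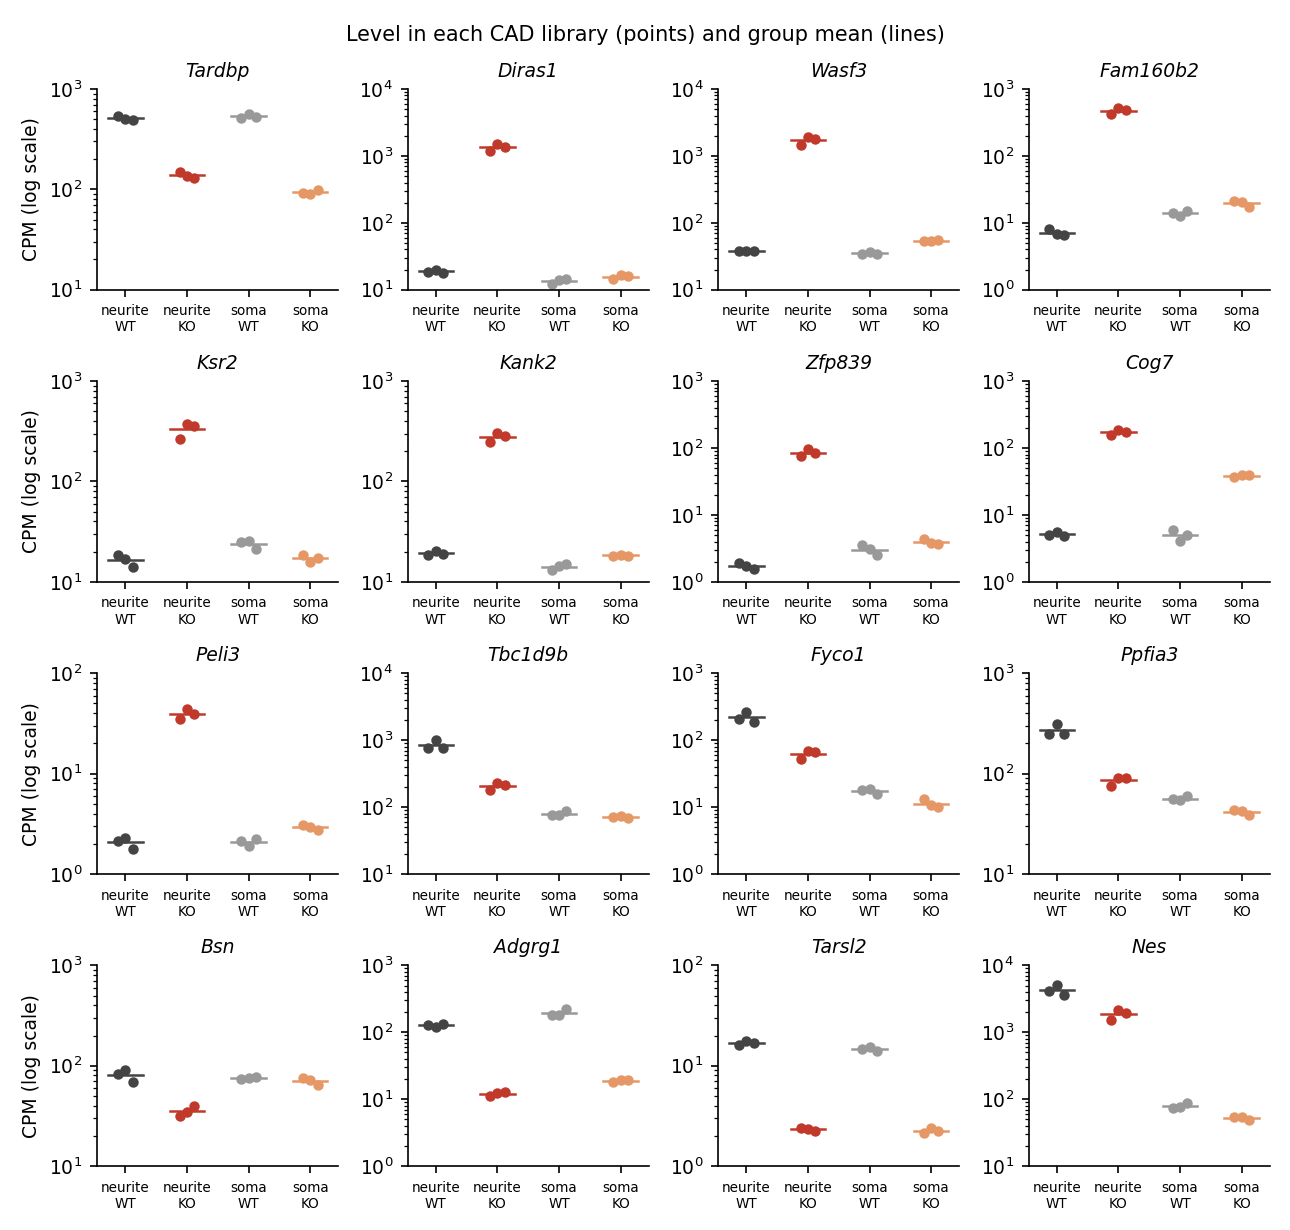
Each panel shows one gene, with its level in every CAD library as a point (CPM, log scale) and the group mean as a line, for neurites and soma of wild-type (WT) and knockout (KO) cells, 3 libraries each. Diras1, Wasf3, Fam160b2, Ksr2, Kank2, Zfp839 and Peli3 were high in the 3 knockout neurite libraries and low in the other 9, while Adgrg1, Tarsl2 and Tardbp were lower in knockout in both compartments.

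The largest falls of neurite abundance included those of Adgrg1 and Unc13c. Apart from the pseudogene Ptges3-ps, the falls named here were smaller than the largest rises. Over all genes called, 13 rose and 4 fell at least 32-fold. Adgrg1, an adhesion G protein-coupled receptor (chr8:94974751-95014217, plus strand), was measured at 127, 119.7 and 134 CPM in wild-type and 11.1, 12.6 and 12.8 CPM in knockout neurites, a log2 fold change of -3.38 (SE 0.0934, adjusted p = 3.96e-13). Its fall was also called in soma, with a log2 fold change of -3.36. Unc13c, which primes synaptic vesicles for release, fell from 8.92, 12.7 and 9.42 CPM to 0.655, 0.835 and 0.949 CPM (log2 fold change -3.66, SE 0.200, adjusted p = 1.38e-09).

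Hif3a, a subunit of the hypoxia-inducible factors, Pltp, the phospholipid transfer protein, and Tarsl2, a threonyl-tRNA synthetase relative, fell by 2.999, 2.80 and 2.87 on the log2 scale (adjusted p = 1.56e-09, 3.43e-09 and 4.57e-12). Tarsl2 was steady within groups, at 16.2, 17.6 and 16.97 CPM in wild-type and 2.37, 2.35 and 2.23 CPM in knockout neurites. Exons of Tarsl2 overlap those of Tm2d3 on the same strand, and Hnrnpm, Tm7sf2, Bsn, Fyco1 and Ddit3 likewise share exonic bases with another annotated gene, so that reads there could be split. Srgn, Mmrn2, Ptprb, Upk1a, Cabp2, Ccdc170, Gm33280 and Gm5779 made up most of the remaining largest falls, with log2 fold changes from -3.64 to -2.77 and wild-type means of 1.91 to 8.49 CPM. Each of these, like Unc13c, Hif3a, Pltp and Tarsl2, was also called lower in soma. For none of them, nor for Adgrg1, was the difference between the compartments past the threshold. The processed pseudogene Ptges3-ps, with 196, 267 and 163 estimated counts in wild-type and 0 in all knockout neurite libraries, was at least 198-fold lower with a floor of 3 counts over the group. It also had 0 counts in 1 of the 3 knockout soma libraries and shares sequence with Ptges3, so this value is uncertain.

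Whether a neurite change differed from that of the soma was tested as the difference of the changes in one model of the 4 CAD groups. Larger and smaller refer to the signed log2 change, so that a gene falling further in neurites than in soma counts as smaller. Tardbp, which fell less in neurites, counts as larger. In soma 1946 genes were higher (11.2%) and 2007 lower (11.6%) in knockout. Of the 2041 genes that rose in neurites, 70.6% also rose in soma, and of those that rose in soma 74.0% rose in neurites. Of the 2344 that fell in neurites, 67.5% fell in soma, and 78.9% of the soma falls were falls in neurites too. The difference itself was past the threshold for 39 genes with a larger (0.225%) and 36 with a smaller (0.208%) change in neurites. This second count rests on single libraries: it was 16 to 23 without wild-type or knockout replicate 1 or 2 of either compartment, taken singly, and 55 without knockout neurite replicate 3.

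Among the 39 genes with the larger neurite change, 36 rose in neurites and 26 changed by less than 1.5-fold in soma, with median log2 fold changes of 1.59 in neurites and 0.243 in soma. Diras1 had means of 18.7 ± 0.987 and 1343 ± 166 CPM in wild-type and knockout neurites (SD, n = 3) and of 13.6 ± 1.33 and 15.7 ± 1.11 CPM in soma, where the change was not called (adjusted p = 0.13). The difference was 5.95 on the log2 scale (SE 0.148, adjusted p = 7.14e-13). Wasf3 and Fam160b2 rose slightly in soma, by 0.61 and 0.50, and the differences of 4.92 and 5.56 were called. Ksr2 fell in soma, from a mean of 24.01 ± 2.23 to 17.2 ± 1.29 CPM (log2 fold change -0.48, adjusted p = 0.00656), while its neurite level rose.

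Kcnj12, an inward rectifier potassium channel, was measured at 16.9, 15.02 and 17.6 CPM in wild-type and 77.98, 95.1 and 91.3 CPM in knockout neurites (log2 fold change 2.41, adjusted p = 2.17e-11), with means of 17.5 ± 1.28 and 17.5 ± 1.10 CPM in soma. The soma groups of this gene overlapped. Fam219a rose from 37.3, 33.01 and 31.7 CPM to 229, 277 and 260.4 CPM in neurites, and the difference from soma was 2.76 (adjusted p = 3.89e-10). Cog7 and Lrrc47 rose in both compartments, by 2.93 and 1.62 in soma, and more in neurites (differences 2.13 and 1.97, adjusted p = 7.56e-07 and 2.35e-09). Gm27002, Kcnc1 and Sulf1 rose in soma as well, by 5.06, 3.11 and 4.68, and their differences were not past the threshold (adjusted p = 0.606, 0.682 and 0.631). Of the 38 genes with a larger neurite change and an annotated 3′ UTR, 20 (52.6%) held a GU stretch of at least 12 bases, with a median of 4.33 GUGUG per kilobase beside 1.56 over all genes tested. The share was 7.60% over all genes tested and 13.9% (5 of 36) among genes with the smaller neurite change. Their 3′ UTRs had medians of 2203.5 bases for the larger and 1857 for the smaller change, beside 1401 over all genes. The genes with the larger change include 10 of 16 genes whose 3′ UTRs the study examined, chosen by it on these samples.

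Among genes with the smaller signed neurite change, Tbc1d9b, Ppfia3 and Fyco1 had the largest differences from soma, and each fell further in neurites. Tbc1d9b, a GTPase-activating protein for Rab GTPases, was measured at 767, 1005 and 758 CPM in wild-type and 182, 231 and 211 CPM in knockout neurites (log2 fold change -2.02, SE 0.111, adjusted p = 1.44e-09). In soma its means were 79.4 ± 6.17 and 70.2 ± 2.63 CPM and the change was not called (adjusted p = 0.25), and the difference was -1.84 (SE 0.154, adjusted p = 3.56e-06). Fyco1, which couples Rab7 vesicles and autophagosomes to kinesin, fell from 207, 264 and 188 CPM to 52.5, 69.96 and 66.5 CPM (log2 fold change -1.80, difference from soma -1.17, adjusted p = 0.00494). Fyco1 means in soma were 17.4 ± 1.37 and 11.3 ± 1.69 CPM, so that both genes stood higher in neurites than in soma for either genotype.

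Ppfia3, Ppfia1 and Bsn, which encode scaffold proteins of the presynaptic active zone, fell in neurites. Ppfia3 (liprin-α3) went from 249, 312 and 249 CPM to 76.02, 90.1 and 90.1 CPM, Ppfia1 (liprin-α1) from 669, 887 and 662 CPM to 316, 433 and 369 CPM and Bsn (Bassoon) from 81.9, 90.6 and 69.2 CPM to 31.9, 34.9 and 39.5 CPM. Their log2 fold changes in neurites were -1.66, -0.99 and -1.19, with differences from soma of -1.21, -1.02 and -1.08 (adjusted p of the difference = 7.61e-05, 0.00379 and 2.69e-04). Ppfia1 and Bsn were not called in soma. In the opposite pattern Tub, the Tubby gene, fell by 0.53 in neurites and rose by 0.53 in soma (both called, difference -1.06, adjusted p = 1.58e-04). Chd1l, a chromatin remodeler, and Evc2 and Hhat, of hedgehog signaling, rose in soma by 0.96, 0.98 and 0.66 and had log2 fold changes of -0.075, -0.08 and -0.43 in neurites, none of them called. For Hhat the fall was called with the replicate number as a block (adjusted p = 0.00671) and with length-scaled counts (adjusted p = 0.00837).

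**Figure D3:**
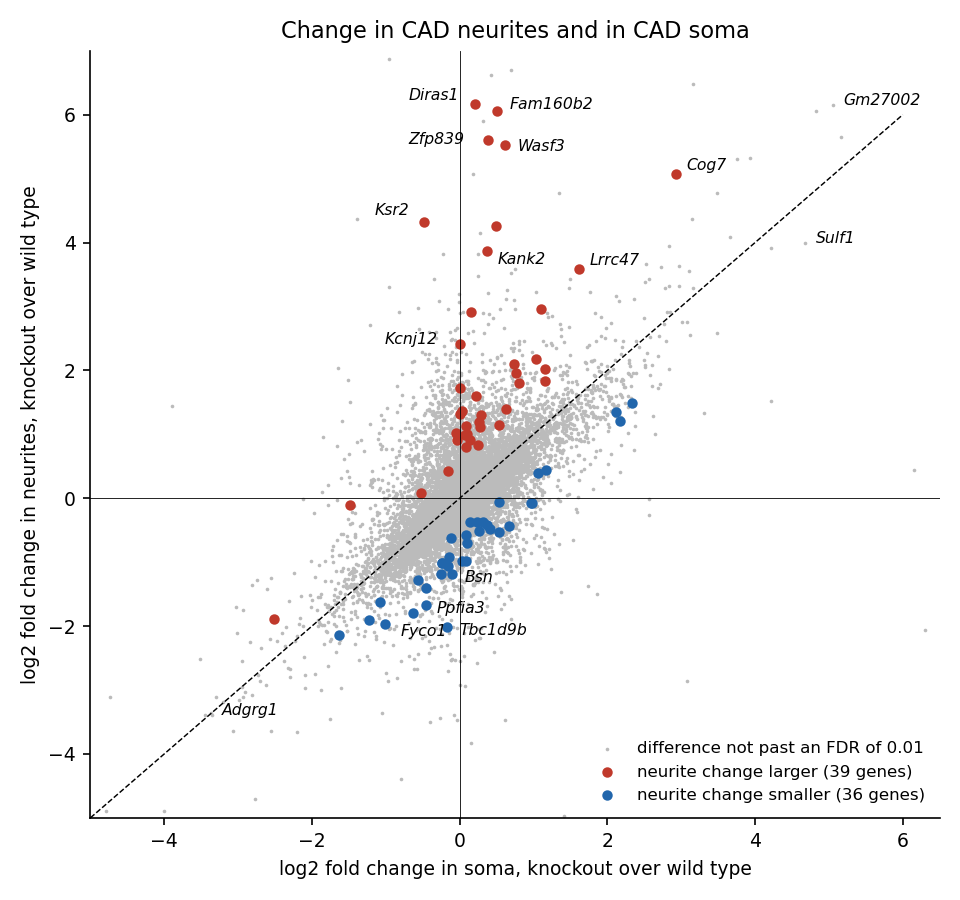
Each point is a gene, placed by its log2 fold change in knockout over wild-type soma (horizontal) and neurites (vertical). Red marks the 39 genes of larger and blue the 36 of smaller signed neurite change (FDR of 0.01 for the difference). Diras1, Fam160b2, Zfp839, Wasf3 and Ksr2 lie along the vertical axis, near 0 in soma, while Sulf1, Gm27002 and Adgrg1 lie near the dashed line of equal change. 28 genes lie outside the axes.

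Gene groups were described by how many tested members were called, to be read against the 11.8% that rose and 13.5% that fell among all genes. The members of a list were chosen with earlier results known, and some genes are in more than one list. Of 42 tubulins and microtubule partners, 17 fell (40.5%) and 6 rose (14.3%), with a median log2 fold change of -0.13. Mapt, the microtubule-associated protein tau, fell from 319.6, 321 and 275 CPM to 142, 149.6 and 152 CPM (log2 fold change -1.04, SE 0.0709, adjusted p = 1.57e-08), and Katna1, the catalytic subunit of the microtubule-severing enzyme katanin, fell from 26.8, 23.4 and 27.5 CPM to 13.3, 11.8 and 11.1 CPM (log2 fold change -1.11, adjusted p = 1.22e-07). Both also fell in soma, by 0.82 and 0.94 on the log2 scale. Stmn4, a stathmin that binds free tubulin, rose from 16.6, 14.04 and 17.999 CPM to 43.6, 42.2 and 34.1 CPM. Dpysl2 (CRMP2) had a log2 fold change of -1.04 (adjusted p = 0.00384), with wild-type replicate 1 at 215 CPM beside 124 and 121 CPM, and the call was lost without that replicate, without any knockout replicate and with DESeq2 (adjusted p = 0.0109 to 0.0317).

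Of the 5 intermediate filament genes tested, 4 fell and none rose. Nes (nestin) went from 4189, 5097 and 3650.00 CPM to 1541, 2123 and 1918 CPM in neurites (log2 fold change -1.21, SE 0.128, adjusted p = 1.95e-06) and Vim (vimentin) from 1082, 1167 and 1067 CPM to 629.6, 674 and 652 CPM (log2 fold change -0.76, adjusted p = 2.63e-06). Ina and Prph fell by 0.41 and 0.35, and the call of Prph was lost without wild-type replicate 3 or knockout replicate 1 or 3 (adjusted p = 0.0106 to 0.0140). The groups of all 4 genes did not overlap, which also held for 46.6% of all genes tested and for 4380 of the 4385 called. Among 30 genes of actin nucleation, 6 fell and 4 rose, near the share over all genes, with Wasf3 and the formin Diaph3 (2.25) rising and Arpc1b and Pfn1 falling by 0.78 and 0.62.

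Of 41 kinesin and dynein genes, 8 fell (19.5%, 5 genes without knockout replicate 1) and 3 rose (7.32%). Kif5a, a heavy chain of conventional kinesin in neurons, rose from 857, 1114 and 753 CPM to 1456, 2183 and 1953 CPM (log2 fold change 1.04, SE 0.141, adjusted p = 2.67e-05). Trak2, an adaptor that links kinesin to mitochondria, fell from 1330.00, 1626 and 1210.4 CPM to 585, 801 and 676 CPM (log2 fold change -1.02, SE 0.111, adjusted p = 2.98e-06). Of 10 RNAs known from protrusions of migrating cells, 2 rose and 4 fell, among the latter Palld (-0.91), Cyb5r3 (-0.60) and Trak2.

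Of 45 presynaptic genes, 17 fell (37.8%) and 8 rose (17.8%), with a median of -0.18, against 10 and 10 in soma. Rab3c, a vesicle GTPase, rose from 80.3, 84.7 and 66.6 CPM to 272, 346 and 306 CPM (log2 fold change 2.00, SE 0.109, adjusted p = 1.27e-09). Syt2, a calcium sensor of release, fell from 18.5, 16.1 and 16.1 CPM to 6.10, 5.89 and 7.51 CPM (log2 fold change -1.38, adjusted p = 1.75e-07). Rab3c rose in soma as well, with a log2 fold change of 1.45. For 3 of the 45 members the signed change was smaller in neurites than in soma, beside 0.208% of all genes tested, and for none larger.

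Of 81 cytosolic ribosomal protein genes 3 rose (Rpl12, Rpl22l1 and Rps14) and none fell, with a median log2 fold change of 0.0090. The rises numbered 0 without knockout replicate 2 and 1 without wild-type replicate 1 or 3 or knockout replicate 1. In neurites the levels of the list summed to 69594 to 72779 CPM in wild-type and 65218 to 73966 CPM in knockout. In soma the median log2 fold change of the list was 0.165, with 3 rises and no fall. The median difference, neurite change minus soma change, was -0.167, with no member past the threshold. Of 75 nuclear-encoded genes of the respiratory chain 3 rose and 1 fell, the latter being Ndufa3, a subunit of complex I, from 26.9, 23.9 and 22.6 CPM to 10.2, 9.23 and 8.13 CPM (log2 fold change -1.41, adjusted p = 9.66e-08). The rises, of Cox6b1, Ndufa12 and Sdha, numbered 0 or 1 without any single library except knockout replicate 3. Among 13 genes encoded in the mitochondrial genome, mt-Nd6 and mt-Cytb fell, with log2 fold changes of -0.83 and -0.62 (adjusted p = 8.91e-05 and 0.00901), the second lost without wild-type replicate 2 or knockout replicate 1 or 3 (adjusted p = 0.0421 to 0.0638). Of 78 mitochondrial ribosomal protein genes 8 rose (4 or 5 without replicate 1 or 2 of either group) and 3 fell. The largest rise was that of Mrps35, from 11.9, 12.3 and 11.4 CPM to 28.5, 28.7 and 27.9 CPM.

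Of 34 hnRNP and ALS-linked RNA-binding protein genes, 8 rose (23.5%, 5 genes without knockout replicate 2) and 2 fell, 1 of these being Tardbp. Hnrnpm and Hnrnpa2b1, which bind RNA in the nucleus and act in splicing and transport, rose by 0.47 and 0.46 on the log2 scale. RNA granule proteins showed 3 rises and 3 falls among 39 genes, with 1 fall without wild-type replicate 2 or knockout replicate 1 or 2. Grn, the gene of progranulin, which is mutated in familial frontotemporal dementia, rose from 51.8, 41.6 and 44.2 CPM to 108, 121 and 131 CPM (log2 fold change 1.39, SE 0.0939, adjusted p = 1.54e-08). In the lysosome and autophagy list that holds Grn, 6 of 43 genes rose and 10 fell (23.3%), among them Atg7 (-1.24), Mcoln1 (-0.93) and Gaa (-0.69).

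Cell cycle genes had the largest share of calls among the 26 lists. Of 36 tested, 29 rose in neurites (80.6%) and none fell, with a median log2 fold change of 0.98, and 32 rose in soma with a median of 1.40. Bub1b, a kinase of the spindle checkpoint, rose from 7.46, 7.75 and 7.51 CPM to 30.9, 30.2 and 33.3 CPM (log2 fold change 2.05, SE 0.0961, adjusted p = 2.54e-10). Ccna2 (cyclin A), Cenpf, of the kinetochore, and Kif20a, of the mitotic spindle, rose by 1.79, 1.76 and 1.76. The levels of the list summed to 899 to 939 CPM in wild-type and 1342 to 1396 CPM in knockout neurites, and to 485 to 536 and 958 to 994 CPM in soma. For 1 of the 36 genes the signed change was smaller in neurites than in soma, beside 0.208% of all genes tested, and for none larger.

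Immediate early genes, which cells induce within minutes of a stimulus, rose in 11 of 21 cases (52.4%) and fell in none, with a median of 0.39, but the count was 7 without wild-type replicate 3 or without knockout replicate 2. Dusp1, a MAP kinase phosphatase, rose from 22.2, 23.3 and 22.6 CPM to 41.6, 45.9 and 44.1 CPM (log2 fold change 0.95, SE 0.0720, adjusted p = 5.35e-08), and Atf3, a stress-induced transcription factor, from 11.4, 9.35 and 9.13 CPM to 21.6, 20.8 and 18.7 CPM (log2 fold change 1.04, adjusted p = 3.29e-06). Of 30 targets of the integrated stress response, 8 rose (26.7%, 5 genes without wild-type replicate 2) and 2 fell, the risers including Atf3, Ddit3 (CHOP, 0.92) and Ppp1r15a (GADD34, 0.58). Of 20 genes of the unfolded protein response of the endoplasmic reticulum, 6 fell and 1 rose, with Sel1l and Sdf2l1 falling by 0.65 and 0.63 and Herpud1 rising by 0.54. The heat shock list had 1 rise among 12 genes, the small heat shock protein gene Hspb8, from 149, 144 and 156 CPM to 327, 322 and 307 CPM.

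Of 25 genes of cholesterol synthesis, 8 fell (32%), with Tm7sf2 (-0.97), Acat2 (-0.52) and Hsd17b7 (-0.51) in the lead, and 1 rose, Mvk (mevalonate kinase, 1.04). In soma 12 fell and 1 rose. Of 24 p53 targets 5 rose (3 without replicate 2 of either group) and 4 fell (2 without wild-type replicate 3 or knockout replicate 1 or 3), and of 23 interferon-induced genes 3 rose and 1 fell. The chemokine gene Cxcl10 rose most among the latter, but from only 6, 8 and 10 estimated counts to 43, 89 and 55. Catecholaminergic markers were split, with 4 of 13 higher and 3 lower. Chgb (chromogranin B, of secretory granules) rose from 2741, 3045 and 2780.5 CPM to 6293, 7436 and 6082 CPM and Dbh, the enzyme that makes noradrenaline, from 19.4, 21.7 and 20.5 CPM to 53.5, 53.8 and 51.01 CPM, while Th, the enzyme that starts catecholamine synthesis, fell from 3.75, 3.94 and 4.07 CPM to 1.92, 1.47 and 1.69 CPM. Neuronal markers had 2 rises and 3 falls among 12. Among the markers of other cell types Cdh5, an endothelial cadherin with 17, 18 and 27 counts in wild-type and 2, 2 and 3 in knockout neurites, fell and Pecam1 rose by 0.49. Among 8 nuclear long noncoding RNAs Pvt1 rose by 0.39, a call that was lost under 9 alternatives, among them each left-out library but wild-type replicate 3.

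**Figure D4:**
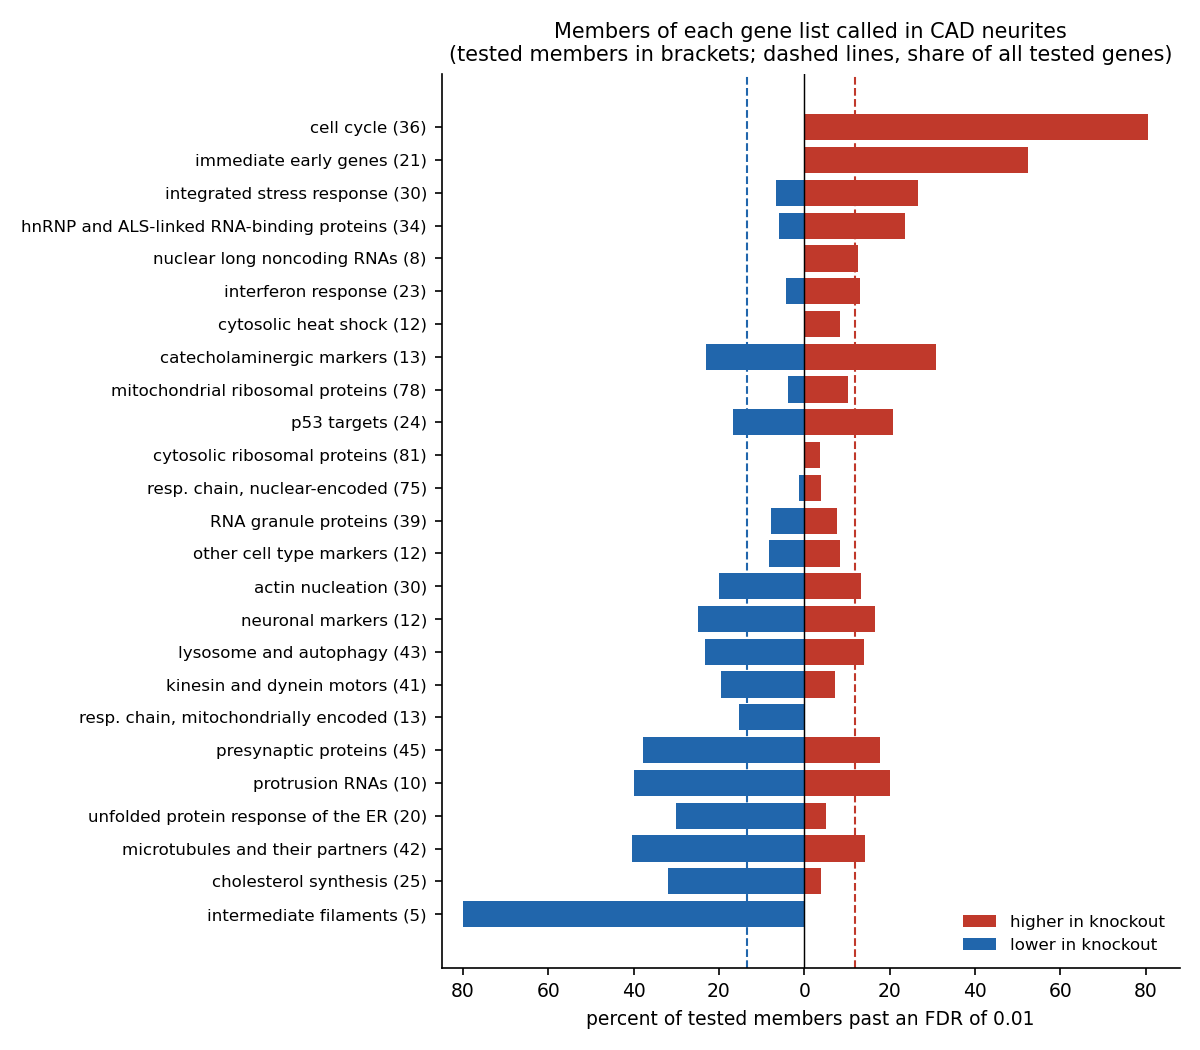
Bars give the percent of the tested members of each gene list (number in brackets) that were higher (right, red) or lower (left, blue) in knockout CAD neurites at an FDR of 0.01, and dashed lines give the share over all genes tested, 11.8% and 13.5%. Cell cycle (80.6% higher) and immediate early genes (52.4% higher) stand furthest to the right among the lists drawn, which leave out the 16 genes whose 3′ UTRs the study examined, and intermediate filaments (4 of 5 genes lower), microtubule and presynaptic genes reach far to the left.

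A list of 16 genes whose 3′ UTRs the study examined, chosen by it on these samples and so not independent evidence, had 9 rises and 3 falls in neurites, with a median log2 fold change of 2.66. These rises are those of Diras1, Fam160b2, Wasf3, Ksr2, Kank2, Lrrc47, Spock2, Fam219a and Kcnj12, of which Spock2 is named only as a member of this list.

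The same change was measured in N2A neurites, where 1161 genes were higher (6.48%) and 913 lower (5.1%) of 17912 tested. Of the CAD rises that were tested in N2A, 595 of 1987 (29.9%) rose and 34 fell there, and of the N2A rises 52.6% rose in CAD. Of the CAD falls, 386 of 2226 (17.3%) fell and 127 (5.71%) rose in N2A, and of the N2A falls 43.5% fell in CAD. Tested directly in one model of both lines, the signed CAD change was larger for 580 genes (2.94%) and smaller for 1228 (6.23%), so that 32.1% of these calls were larger, against 46.5% with upper-quartile scaling. Leaving out N2A wild-type replicate 2 lowered the N2A rises to 712, N2A falls were 520 to 600 without any of the wild-type replicates or knockout replicate 1 or 2, and the larger differences were 377 and 350 without CAD knockout replicate 1 or N2A wild-type replicate 1.

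Diras1, Wasf3 and Ksr2 rose in both lines. Their log2 fold changes in N2A neurites were 3.86, 3.85 and 5.71 (adjusted p = 8.06e-09, 8.06e-09 and 1.99e-09). The rise was larger in CAD for Diras1 and Wasf3 and smaller for Ksr2, with each difference past the threshold. Fam160b2 rose in N2A by only 0.91, and its difference of 5.10 was the largest among the named genes (adjusted p = 1.75e-17). Kcnc1 rose by 3.56 in CAD and 3.52 in N2A, with a difference of -0.022 (SE 0.365, adjusted p = 0.999).

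Of 6 traffic and active zone genes picked from the named falls in CAD neurites, none was called lower in N2A neurites. Over all CAD falls tested in N2A, 17.3% were called lower there. Tbc1d9b, Ppfia3 and Bsn had log2 fold changes of 0.16, 0.067 and 0.31 there, none called, and Fyco1, Ppfia1 and Trak2 rose, by 0.89, 0.43 and 0.73. The difference between the lines was past the threshold for all 6, beside 39.1% of the 2344 genes that fell in CAD neurites. The kinesin gene Kif13a, not among the 6, fell in both lines, with log2 fold changes of -0.62 in CAD and -0.77 in N2A. Adgrg1 fell in both, by 2.54 in N2A, whereas Pltp and Tarsl2 had N2A values of 0.26 and -0.30 that were not called. Tardbp fell less in N2A (-1.41) than in CAD, and the difference was called.

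Of the gene groups, cell cycle genes also rose in N2A neurites, in 30 of 36 cases and with a median of 0.87. List counts in N2A are to be read against the 6.48% that rose and 5.1% that fell among all genes tested there. Immediate early genes had no rise and 5 falls among 21 in N2A, and integrated stress response targets no rise and 7 falls among 30, where CAD had 11 and 8 rises. Atf3, Ddit3 and Ppp1r15a rose in CAD and fell in N2A, by 0.76, 0.52 and 0.75 on the log2 scale. Of the immediate early genes 7, and of the stress response genes 10, had a change past the threshold of the difference between the lines, all larger in CAD. Over all genes tested, 2.94% had the larger change in CAD. Presynaptic genes had 9 rises and 2 falls among 41 in N2A. Genes encoded in the mitochondrial genome had 5 rises and no fall among 13 there.

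**Figure D5:**
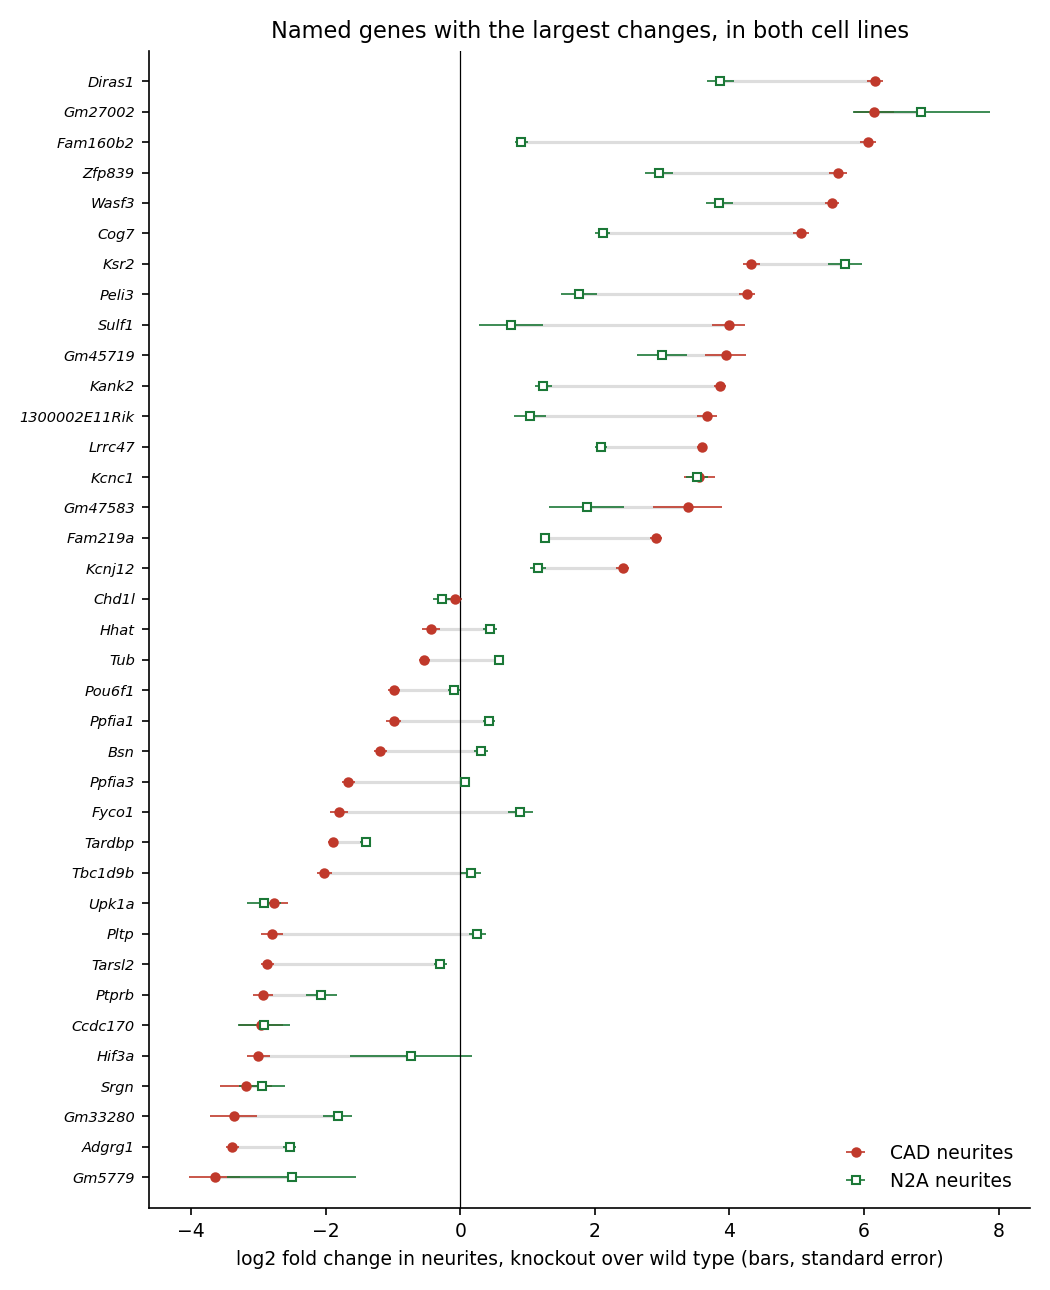
Points give the log2 fold change in knockout over wild-type neurites of named genes with the largest changes, in CAD (red, filled) and N2A (green, open) cells, with horizontal bars for the standard error and grey lines joining the lines' values. Ksr2, Diras1 and Wasf3 lie far to the right in both lines, Fam160b2 does so in CAD at 6.06 against 0.91 in N2A, and Fyco1, Tub and Ppfia1 lie on opposite sides of 0.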

How the data were processed

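PolyA RNA of the soma and neurite fractions of TDP-43 knockout and wild-type CAD and N2A cells was sequenced, and samples were grouped by their labels. The authors removed adapters (cutadapt), assigned reads to mm10 transcripts (Salmon) and deposited, per transcript, an estimated count of reads. The authors also deposited a TPM for each transcript, which was used only for composition and to choose genes. Versions of these tools and the strand setting are not given in the sources used here. Without strand, reads of a gene and of an overlapping or antisense gene cannot be told apart.

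Estimated counts were summed to the 53664 genes of GENCODE vM21 (GRCm38), which held 134952 of 135181 transcripts, and rounded. At most 0.1175% of a library's counts had no gene. The study's methods name another Gencode release. Genes were filtered with filterByExpr, scaled by TMM and tested with edgeR 4.0.16 (glmQLFit, glmQLFTest) in R 4.3.3, with Benjamini-Hochberg adjustment and an FDR of 0.01. The 12 CAD libraries were fitted as 4 groups, the 12 N2A libraries likewise, and the difference between lines came from the 24 libraries in 8 groups. A positive log2 fold change means higher in knockout. No 2 replicates were alike within counting noise. 3′ UTRs were taken from the annotation and transcript sequences of GENCODE vM21.

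The genes named are Tardbp, Diras1, Ksr2 and Wasf3, the 15 largest rises and falls in CAD neurites past the FDR with a mean of at least 1 CPM and no overlap between groups, the 10 highest by TPM, up to 4 members of each list past the FDR, and the 10 largest differences from soma in each direction. Markers at 0, overlapping genes and Spock2 were named outside this rule after their values were seen, and 3 genes that the rule chose are not reported here. Members and lists were chosen with earlier results of these data known.

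Alternatives were an FDR of 0.05, DESeq2 1.42.0, upper-quartile and median-ratio scaling, no filter or a mean of at least 1 CPM, length-scaled counts, a replicate block, neurite libraries alone, leaving out each replicate, and, for GU stretches, another transcript or at least 20 bases. On data simulated from the CAD neurite libraries (16946 genes), 27 of 49 changes of 1.5-fold, 30 of 50 of 2-fold, 41 of 50 of 4-fold and 43 of 48 of 8-fold were recovered, and 1 of 16749 unchanged genes was called. Only 200 genes were changed there, against 4385 called in the data, and counts were drawn from the distribution that edgeR assumes. These rates may therefore not hold for the data. Other steps used python 3.11.15, numpy 2.4.6, pandas 2.3.3 and matplotlib 3.10.9.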

Additional observations from a re-analysis of the deposited data

Results flagged for a closer look

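For 57 of the genes named, the neurite change in CAD differed from that in N2A at an FDR of 0.01 in edgeR's quasi-likelihood test of the difference between the lines. Values are the CAD change minus the N2A change on the log2 scale.

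The CAD change was the larger by 5.10 for Fam160b2, 3.17 for Sulf1, 2.89 for Cog7, 2.60 for Zfp839, 2.58 for 1300002E11Rik, 2.57 for Kank2, 2.44 for Peli3, 2.25 for Diras1, 1.62 for Wasf3, 1.60 for Fam219a, 1.445 for Lrrc47 and 1.21 for Kcnj12. Apart from Sulf1, which was not called in N2A, each of these genes rose in both lines. So did the cell cycle genes Bub1b, Kif20a and Cenpf, with differences of 1.16, 0.83 and 0.56. Atf3, Ddit3 and Ppp1r15a, which rose in CAD and fell in N2A, differed by 1.74, 1.38 and 1.28. For genes that rose in CAD and were not called in N2A, the difference was 1.33 for Dbh, 1.28 for Stmn4, 1.01 for Btg2, 0.92 for Cpeb3, 0.92 for Dusp1, 0.84 for Hspb8, 0.73 for Nars, 0.65 for Herpud1 and 0.47 for Hnrnpm.

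The difference was -1.44 for Ksr2, which rose in both lines and more in N2A. For genes that fell in CAD and rose in N2A it was -2.745 for Fyco1, -1.84 for mt-Cytb, -1.80 for Trak2, -1.47 for Ppfia1, -1.46 for Mcoln1 and -1.16 for Tub. For genes that fell in both it was -0.90 for Adgrg1, -0.73 for Mapt and -0.53 for Tardbp. For genes that fell in CAD and were not called in N2A it was -3.17 for Cdh5, -3.11 for Pltp, -2.625 for Tarsl2, -2.23 for Tbc1d9b, -1.785 for Ppfia3, -1.55 for Syt2, -1.55 for Bsn, -1.51 for Ndufa3, -1.498 for Nes, -1.39 for mt-Nd6, -1.03 for Palld, -0.997 for Sel1l, -0.96 for Gaa, -0.96 for Pou6f1, -0.90 for Mrpl55, -0.85 for Mrpl41, -0.73 for Dnajb11 and -0.46 for Atxn2. Hhat and mt-Co1, which were not called in CAD neurites and rose in N2A, had differences of -0.93 and -1.25.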

How the results depend on the processing

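No gene named that was called in CAD neurites changed direction under any alternative run. The CAD neurite counts, 2041 higher and 2344 lower, stayed within 1.5-fold under every alternative run, between 1544 (length-scaled counts) and 3002 (FDR of 0.05) higher and between 1800 (without 1 library) and 3264 (FDR of 0.05) lower, with 2199 and 2651 by DESeq2. Differences from soma were fewer and less stable: 39 larger and 36 smaller became 70 and 100 at an FDR of 0.05, 78 and 145 by DESeq2, 117 and 163 without a filter, and 22 smaller with length-scaled counts, and leaving out 1 library gave 31 to 43 and 16 to 55. N2A falls became 1839 at an FDR of 0.05, 1385 by DESeq2 and 494 with length-scaled counts, N2A rises 1930 at an FDR of 0.05, and leaving out 1 library gave 712 to 984 rises and 520 to 676 falls. The larger differences between the lines became 1150 at an FDR of 0.05, 1018 by DESeq2, 1127 with upper-quartile scaling, 972 with a mean of at least 1 CPM and 345 with length-scaled counts, the smaller ones 1922 at an FDR of 0.05, and leaving out 1 library gave 350 to 503 and 935 to 1137. The cause of these shifts was not tested.

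With the replicate number as a replicate block, 2153 genes were higher and 2543 lower in CAD neurites. The labels say nothing of what a number shares, and deviations of same-numbered wild-type and knockout neurite libraries correlated at 0.104, 0.092 and 0.0114, with wild-type replicate 3 closest to knockout replicate 1, so the numbers were not taken as pairs. Same-numbered neurite and soma libraries correlated at 0.135, 0.1 and 0.23 in wild type and at -0.166, 0.0329 and -0.0428 in knockout. Some values did follow the number. The mitochondrial share of counts was lowest in replicate 1 and highest in replicate 2 in all 4 CAD groups. Dpysl2 was highest in replicate 1 in all 4. What the numbers share was not tested. With the block 47 differences from soma were larger and 44 smaller.

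Of the values for named genes under alternatives, 1847 kept their direction and side of the threshold, 79 lost the call and 6 gained it. The calls lost were of Atxn2, Cox6b1, Cpeb3, Dpysl2, Egr2, Elavl2, Fosb, Isg15, Ndufa12, Pecam1, Prph, Pvt1, Rpl12, Rpl22l1, Rps14, Sdha and mt-Cytb. Of the counts by gene list, 677 stayed within 1.5-fold and 103 did not. The share of 3′ UTRs with a GU stretch stayed higher among genes that rose than among those that fell with the transcript of the highest TPM (12.3 and 4.93%) and with at least 20 bases (8.35 and 3.57%). At these depths genes under about 1 CPM rest on few counts.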

Other observations

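Noncoding genes were called less often than protein-coding genes in CAD neurites, and the part of abundance in this was not tested. Of 806 long intergenic noncoding RNAs 49 rose (6.08%) and 27 fell (3.35%), of 429 antisense genes 18 rose and 5 fell, and of 424 processed pseudogenes 7 rose and 8 fell, beside 1895 rises (13.7%) and 2273 falls (16.5%) among 13795 protein-coding genes. Antisense genes share reads with the genes they overlap where strand is not used.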
